A study of Homo sapiens with 4 samples.

Results

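The ZNF genes of chromosome 19 were taken as the protein-coding genes of the deposited table that lie on chromosome 19 and whose symbol begins with ZNF followed by a number, which gave 249 of the 58735 genes in the table. Of these, 239 are listed in the table as C2H2 zinc finger factors, and 10 carry no factor family. The names ZNF559-ZNF177, ZNF625-ZNF20 and ZNF816-ZNF321P are readthrough genes, which the rule takes as members. The RNA came from SUP-M2 cells, an established human cell line grown from an ALK-positive anaplastic large cell lymphoma (a T cell cancer). It was sequenced as 4 libraries in 2 groups of 2, namely shGOLM1, titled as short hairpin RNA against GOLM1, and shscramble, titled as a scrambled hairpin. GOLM1 encodes a Golgi membrane protein. A hairpin lowers a transcript, yet the genotype label of the shGOLM1 samples reads knockout and that of the shscramble samples reads control. Nothing in the labels tells if 1 hairpin or several were used, or if replicates were separate cultures. The p-values therefore set a group difference only against the spread among these libraries, which may be technical.

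C2H2 zinc finger proteins bind DNA through arrays of short finger modules held by zinc. Many of those encoded on chromosome 19 also carry a KRAB domain, which recruits the corepressor TRIM28 (KAP1) and through it the histone H3 lysine 9 methyltransferase SETDB1 and HP1 proteins (CBX1, CBX3 and CBX5). They are known above all for silencing transposable elements, and they stand in tandem clusters that grew by gene duplication. Because members resemble each other, reads may be shared or dropped between near-identical copies. The sources used here do not give how the authors' counting treated such reads, so single members with close copies are uncertain.

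The libraries held 27544171 to 31972153 counts. GOLM1 was at 69.6 ± 0.0515 CPM in shGOLM1 and at 212 ± 1.06 CPM in shscramble (SD, n = 2 each). CPM here are counts scaled to library totals after TMM adjustment. All 5 marker genes listed for the line were counted in every library, and they did not move together. TNFRSF8 reached 539 and 88.4 CPM in the shGOLM1 libraries (replicate 1, then 2), against 634 and 614 CPM in shscramble. ALK was at 327 and 170 CPM in shGOLM1, against 340 and 316 CPM in shscramble, and GZMB was also lowest in replicate 2. IL2RA was highest there, at 345 and 599 CPM in shGOLM1, against 476 and 469 CPM in shscramble. PRF1 was higher in both shGOLM1 libraries, at 621 and 145 CPM, against 2.91 and 2.71 CPM in shscramble. Marker lists of B, myeloid, epithelial and fibroblast cells, 3 genes each, summed to 0.0865 to 3.16 CPM in shGOLM1 and 0.0613 to 0.797 CPM in shscramble, with MS4A1 and COL1A2 at 0 counts in all 4 libraries. The shGOLM1 libraries stood far apart from each other. The median absolute log2 difference between replicates, over 14166 genes with enough counts to test, was 0.95 in the shGOLM1 pair and 0.15 in the shscramble pair. Mitochondrially encoded genes took 0.455% of counts in shGOLM1 replicate 2, against 1.95% in shGOLM1 replicate 1 and 2.38% and 2.24% in shscramble. Values of single members are therefore given for each shGOLM1 library where the groups are compared.

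Most members had no counted reads or very few in these cells, and members at 0 counts often stood in long runs along the chromosome. Whether reads of similar copies were dropped in counting was not tested, so 0 counts do not show that a member was not transcribed. No read was counted in any library for 131 of the 249 members (52.6%), and another 30 had too few counts to test, with at most 34 counts in a library. The other 88 members (35.3%) had enough. By the same measures, 54 of 265 ZNF genes on other chromosomes (20.4%) and 350 of 1223 other protein-coding genes of chromosome 19 (28.6%) were at 0 counts throughout, and 70.9% and 54.6% of them were tested. These shares are descriptions with no test of their difference. For a gene at 0 the upper limit is 3 counts, or between 0.0865 and 0.132 CPM depending on the library, for counting error only.

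The sequences just before the RefSeq gene start are shown for 8 members, so that members with and without counts can be set side by side. They are ZNF146, the member with the highest level, 4 members that were nearly lost in shGOLM1 replicate 2 (ZNF426, ZNF614, ZNF181 and ZNF324B), ZNF333, which was higher in that library, and ZNF528 and ZNF525, the ends of the longest run of members at 0 counts. Each is the 150 bases before the RefSeq gene start, build GRCh38.p14, on the gene's strand, with every CG dinucleotide in capitals. The deposited table starts some genes further upstream, so the stretches of ZNF614, ZNF146 and ZNF333, whose RefSeq starts lie 1861, 504 and 247 bases downstream of the table's, fall within the table's gene spans. For the other 5 the starts differ by at most 88 bases.
ZNF146, chr19:36214956-36215105, plus strand: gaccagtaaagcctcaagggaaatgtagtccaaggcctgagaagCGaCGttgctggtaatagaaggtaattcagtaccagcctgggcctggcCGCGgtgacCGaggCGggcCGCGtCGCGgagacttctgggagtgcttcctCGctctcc
ZNF426, chr19:9538646-9538795, minus strand: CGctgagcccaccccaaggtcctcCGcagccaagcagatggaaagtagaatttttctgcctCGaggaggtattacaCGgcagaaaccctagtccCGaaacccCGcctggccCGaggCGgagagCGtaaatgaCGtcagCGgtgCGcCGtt
ZNF614, chr19:52028380-52028529, minus strand: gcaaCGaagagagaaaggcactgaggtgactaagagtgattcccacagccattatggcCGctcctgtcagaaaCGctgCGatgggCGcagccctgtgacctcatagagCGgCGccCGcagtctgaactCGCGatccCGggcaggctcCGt
ZNF181, chr19:34734093-34734242, plus strand: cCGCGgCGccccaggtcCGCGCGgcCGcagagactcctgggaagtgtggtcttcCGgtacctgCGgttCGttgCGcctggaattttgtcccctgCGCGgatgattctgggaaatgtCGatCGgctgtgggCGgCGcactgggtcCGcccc
ZNF324B, chr19:58451472-58451621, plus strand: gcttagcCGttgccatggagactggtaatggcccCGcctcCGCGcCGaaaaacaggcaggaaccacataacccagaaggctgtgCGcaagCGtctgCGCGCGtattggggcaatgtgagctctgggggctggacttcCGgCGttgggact
ZNF333, chr19:14689898-14690047, plus strand: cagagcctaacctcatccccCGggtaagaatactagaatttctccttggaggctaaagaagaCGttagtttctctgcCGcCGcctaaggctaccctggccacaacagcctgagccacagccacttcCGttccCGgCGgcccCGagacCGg
ZNF528, chr19:52397699-52397848, plus strand: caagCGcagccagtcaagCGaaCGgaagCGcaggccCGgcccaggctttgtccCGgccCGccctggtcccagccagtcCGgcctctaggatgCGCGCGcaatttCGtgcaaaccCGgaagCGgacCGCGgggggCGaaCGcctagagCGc
ZNF525, chr19:53365555-53365704, plus strand: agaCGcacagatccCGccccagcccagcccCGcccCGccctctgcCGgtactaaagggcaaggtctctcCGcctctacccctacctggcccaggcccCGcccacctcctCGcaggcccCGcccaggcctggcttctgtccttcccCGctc

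The windows of members with and without counts had similar CG numbers. ZNF528, at 0 counts in every library, held 19 CG dinucleotides in the stretch shown, and ZNF146 held 11. RefSeq promoter windows of 300 bases (250 before and 50 after the start) could be matched for 217 of the 249 members, and in 155 of them the RefSeq start lay within 100 bases of the table's. The median number of CG dinucleotides per window was 22 in the 83 matched tested members, 19 in the 111 matched members at 0 counts, and 14 over all 35116 windows. The quartiles of members at 0 counts, 14 and 25, lay within those of all windows, 4 and 28. The median GC content was 61.7% in tested members, 59% in members at 0 counts and 58.7% over all windows. The ETS-type core CCGGAAG, searched on both strands, stood in 42.2% of the windows of tested members, in 46.8% of those of members at 0 counts and in 10.3% of all windows. The GC box GGGCGG, also searched on both strands, stood in 63.9%, 71.2% and 45.0% of them in the same order, and CCAAT in 49.4%, 52.3% and 34.6%. TATAAA was found in 1.2% of the tested members' windows, in 1.8% of those of members at 0 counts and in 11.5% of all. None of these motifs contains another, and a match is a description, not a binding site. In each of these motif shares, tested members and members at 0 counts were closer to each other than to all windows. The set of all windows was not limited to protein-coding genes or to 1 window per gene, as the members' windows were. Windows of ZNF genes on other chromosomes were not counted separately, so these shares are not shown to be particular to the members.

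Cut wherever more than 1000000 bases separated neighbouring members, the 249 members fell into 16 blocks, and 7 blocks with at least 10 members held 228 of them. In the block from ZNF175 to ZNF331 (chromosome 19, 51571298 to 53580269, GRCh38), 31 of 40 members were at 0 counts and 5 were tested. It held the longest run at 0 counts, 21 consecutive members from ZNF528 to ZNF525. In the block from ZNF101 to ZNF254 (19668796 to 24129961), 25 of 37 members were at 0 counts, with 16 in a row from ZNF708 to ZNF730. ZNF91 and ZNF93, which repress SVA and LINE-1 elements in human stem cells, lie in this block and had 0 counts in all 4 libraries. Between ZNF653 and ZNF791 (11483427 to 12640098), 18 of 26 members were at 0 counts, 13 of them in a row from ZNF433 to ZNF709. The block from ZNF628 to ZNF446 (55476332 to 58481230), the one nearest the end of the long arm, was the opposite, with 35 of 59 members tested and 15 at 0 counts. Its first 9 members, from ZNF628 to ZNF444, all had enough counts to test. TRIM28 itself lies just beyond this block (58544091 to 58550722).

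**Figure D1:**
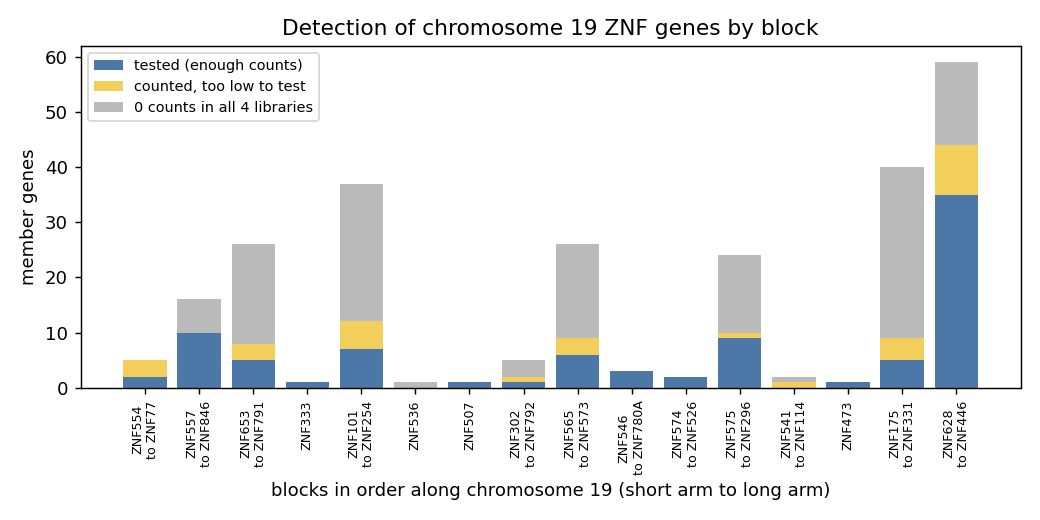
Number of member genes (y axis) in each of the 16 blocks along chromosome 19 (x axis), split into tested members, members counted but too low to test, and members with 0 counts in all 4 libraries. The block from ZNF175 to ZNF331 has 31 of 40 members at 0, and the block from ZNF628 to ZNF446 has 35 of 59 tested.

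Of the 143 members with 0 counts in both shscramble libraries, none reached 1 CPM of the library total in either shGOLM1 library, and the largest count any of them had there was 6. Among all genes at 0 in shscramble, 120 of 37506 (0.32%) reached 1 CPM in a shGOLM1 library, so that 0 of 143 members is near the background. Among protein-coding genes at 0 in shscramble, 54 of 6578 (0.821%) reached 1 CPM in a shGOLM1 library, with counts of up to 8878. Among ZNF genes on other chromosomes it was 1 of 63, with 35 counts. No member met the condition of 0 counts in both libraries of one group and at least 1 CPM in both of the other.

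Among the transcribed members, levels were low. By the authors' FPKM, which divide by gene length, 48 members were at 1 or more in both shscramble libraries and 5 were at 10 or more. The median over the 88 tested members was 1.23 FPKM in shscramble, against 3.89 FPKM over all tested genes. ZNF146, which encodes a protein made almost wholly of zinc fingers with no KRAB domain, was the highest. It stood at 24.0 and 19.4 FPKM in shGOLM1 and at 41.0 and 43.2 FPKM in shscramble. The next in shscramble were ZNF787 at 16.99 and 14.5 FPKM, ZNF581 at 13.7 and 13.5 FPKM, ZNF317 at 11.6 and 11.5 FPKM, ZNF428 at 12.0 and 10.5 FPKM and ZNF121 at 9.61 and 11.1 FPKM. ZNF146 lay above all others in both shscramble libraries, while the range of ZNF428 overlapped those of ZNF317 and of ZNF121.

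No member passed the test between shGOLM1 and shscramble. EdgeR's quasi-likelihood test called 0 of the 88 tested members, where it called 0 of 14166 genes (0%), and the smallest adjusted p of a member was 0.42. GOLM1 itself, with a log2 fold change of -1.61, also had an adjusted p of 0.42 in that test. A lack of calls therefore does not show a lack of change. DESeq2, limma-voom and edgeR's likelihood-ratio test also called 0 members, where DESeq2 called 3.42% of all genes higher and 0.339% lower, and the likelihood-ratio test called 3.06% and 0.438%. The authors' deposited table has a test for 111 members, none with an adjusted p under 0.05 and the smallest, that of ZNF254, at 0.391. At an unadjusted p under 0.05, 1 member was higher (8.2% of all genes) and 1 lower (3.58%). They were ZNF780B and ZNF146. The median fitted log2 fold change was -0.12 over the tested members and 0.05 over all tested genes. In bulk RNA, fewer cells with a transcript and less of it per cell cannot be told apart.

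For 30 of the 88 tested members the shGOLM1 and shscramble libraries were fully separate. In 14 both shGOLM1 libraries lay above both shscramble libraries (15.9%, against 25.2% of all tested genes), and in 16 they lay below (18.2%, against 26.5%). Of tested ZNF genes on other chromosomes, 13.8% lay above and 24.5% below. Both ZNF sets thus separated the groups in a smaller share than tested genes at large. The median level was 6.41 CPM in tested members and 20.3 CPM in all tested genes, and the part of low counts in this was not tested.

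The member with the smallest p among those of at least 1 CPM was ZNF146 (ENSG00000167635, 36214602 to 36238774). It had 102 and 82.8 CPM in shGOLM1 replicates 1 and 2, against 172 and 181 CPM in shscramble. Both shGOLM1 libraries were lower, with a log2 fold change of -0.93 (SE 0.29) and an adjusted p of 0.42 in edgeR. It overlaps ZNF565 on the opposite strand, and without the strand setting of the counting their reads cannot be told apart. ZNF254 had 5.34 and 2.37 CPM in shGOLM1 against 9.50 and 9.02 CPM in shscramble, a log2 fold change of -1.26 (SE 0.56). ZNF576 had 6.60 and 4.09 CPM in shGOLM1 against 10.1 and 9.29 CPM in shscramble. Its neighbour ZNF428 had 12.0 and 15.8 CPM in shGOLM1 against 21.9 and 19.1 CPM in shscramble. In both of these the shGOLM1 libraries lay below the shscramble libraries, with adjusted p of 0.49 and 0.55 in edgeR. Reads of the gene SRRM5, which overlaps both, may be among theirs.

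In the other members with small p values below shscramble, the difference stood mainly in shGOLM1 replicate 2. ZNF507 had 32.4 and 13.1 CPM in shGOLM1 replicates 1 and 2, against 35.3 and 41.8 CPM in shscramble. ZNF784 had 4.24 and 0.879 CPM in shGOLM1 against 6.96 and 4.54 CPM in shscramble. ZNF444 had 24.9 and 16.4 CPM in shGOLM1 against 28.6 and 26.7 CPM in shscramble. The libraries of these 3 did not overlap between groups, and their adjusted p in edgeR ran from 0.58 to 0.64. ZNF473, whose protein belongs to the machinery that processes histone pre-mRNA, had 30.14 and 10.1 CPM in shGOLM1 against 30.13 and 35.7 CPM in shscramble, so that its groups overlapped.

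Members with the smallest p above shscramble were spread over 4 of the large blocks and the lone ZNF333. ZNF224, a KRAB repressor known for acting on the aldolase A gene, had 3.03 and 2.37 CPM in shGOLM1 replicates 1 and 2, against 1.01 and 0.992 CPM in shscramble. The fitted log2 fold change was 1.43 (SE 0.54; adjusted p = 0.42 in edgeR). ZNF266 had 19.03 and 14.4 CPM in shGOLM1 against 8.28 and 8.72 CPM in shscramble, a log2 fold change of 0.98 (SE 0.37). ZNF460 had 6.72 and 7.69 CPM in shGOLM1 against 2.24 and 3.82 CPM in shscramble, a log2 fold change of 1.25 (SE 0.50). In all 3 both shGOLM1 libraries lay above both shscramble libraries. ZNF333 had 9.37 and 17.6 CPM in shGOLM1 against 6.44 and 6.46 CPM in shscramble. ZNF550 had 4.87 and 8.48 CPM in shGOLM1 against 3.10 and 3.22 CPM in shscramble. ZNF699 had 3.86 and 2.15 CPM in shGOLM1 against 1.26 and 1.47 CPM in shscramble. ZNF420 had 5.02 and 4.13 CPM in shGOLM1 against 2.42 and 2.92 CPM in shscramble. The groups of these 4 did not overlap either, with adjusted p from 0.46 to 0.53. ZNF224, ZNF460, ZNF333, ZNF550, ZNF699 and ZNF420 each overlap an annotated gene on the opposite strand. ZNF581, the last of these by p, had 23.4 and 57.9 CPM in shGOLM1 against 24.1 and 23.6 CPM in shscramble, so it was higher in replicate 2 alone, and it shares its strand and part of its span with ZNF580.

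ZNF780B, named after its values were seen because its mean was under 1 CPM, had 32 and 24 counts in shGOLM1, against 9 and 7 counts in shscramble. The fitted log2 fold change was 2.00 (SE 0.66; adjusted p = 0.42 in edgeR). Its close neighbour ZNF780A had 1000 and 38 counts in shGOLM1 replicates 1 and 2, against 382 and 469 counts in shscramble. The copies carry similar names and lie side by side, and how reads were divided between them was not tested.

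**Figure D2:**
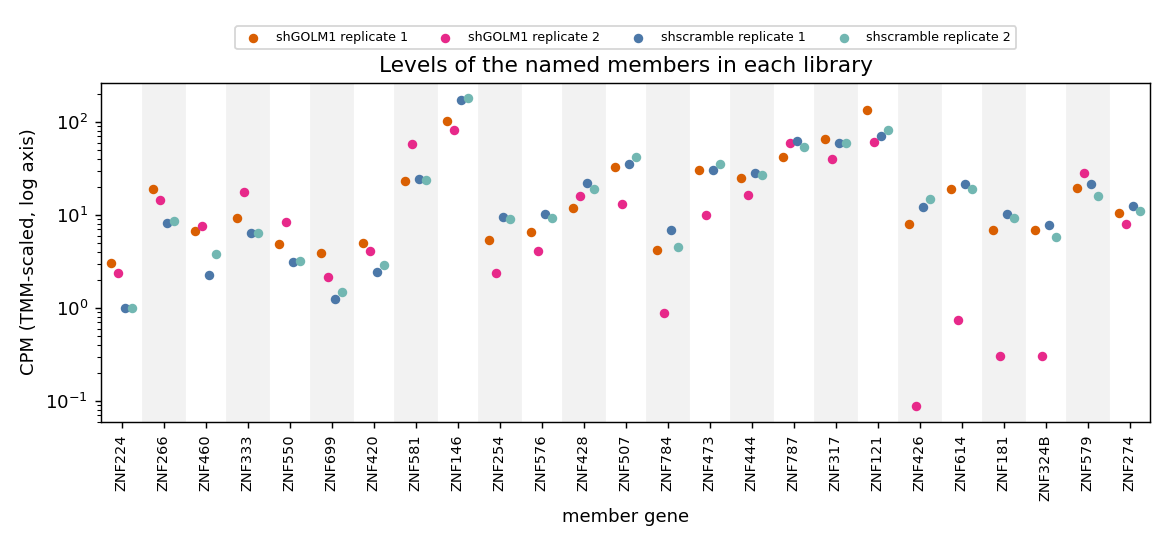
Level of each of 25 named members (x axis) in CPM on a log axis (y axis), 1 point per library, with shGOLM1 replicates left of shscramble replicates. ZNF426, ZNF614, ZNF181 and ZNF324B sit at 0.0879 to 0.747 CPM in shGOLM1 replicate 2 and at 5.83 CPM or more in both shscramble libraries, while ZNF146 is lower in both shGOLM1 libraries.

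Taken one at a time, the shGOLM1 libraries gave the members different values. Relative to the shscramble mean, the median log2 CPM difference over the 88 tested members was 0.30 in shGOLM1 replicate 1, with quartiles of -0.03 and 0.78. In shGOLM1 replicate 2 it was -0.92, with quartiles of -1.9985 and 0.00. Over all tested genes the medians were 0.00 in replicate 1 and -0.04 in replicate 2. For ZNF genes on other chromosomes they were 0.08 and -0.59, and for other protein-coding genes of chromosome 19 they were -0.02 and 0.04. Scaling by library totals alone moved the median of all tested genes to 0.12 in replicate 1 and -0.36 in replicate 2, and that of the members to 0.42 and -1.24. The members' median minus that of all genes, which a change of scaling leaves almost as it is by construction, was 0.30 in replicate 1 and -0.89 in replicate 2.

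**Figure D3:**
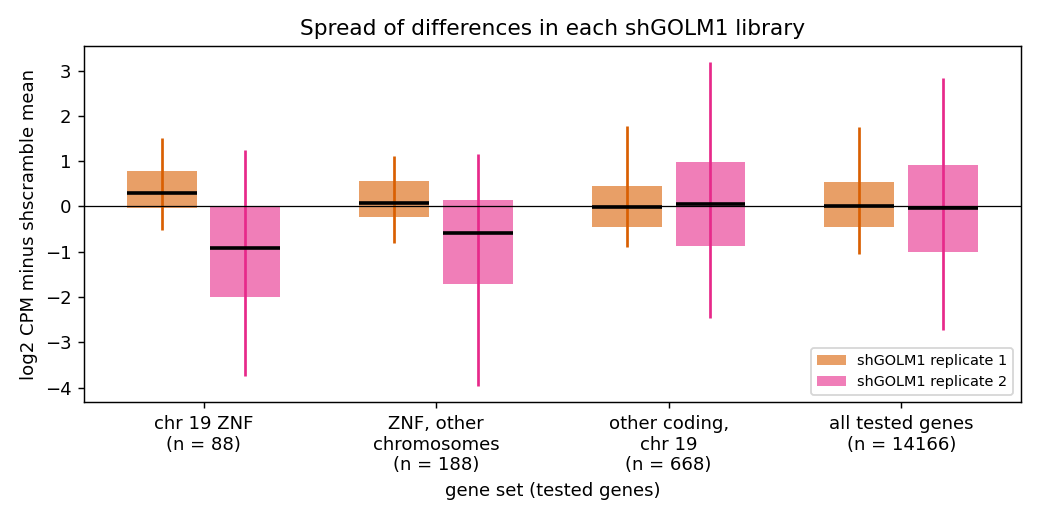
Log2 CPM minus the shscramble mean (y axis) for tested genes of 4 sets (x axis), for shGOLM1 replicate 1 and replicate 2. Boxes span the quartiles, black lines mark medians and thin lines run from the 5th to the 95th percentile; the members' medians are 0.30 and -0.92, and those of all tested genes 0.00 and -0.04.

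Summed over all 249 members, counts came to 1572 and 619 CPM of the unadjusted library total in shGOLM1 replicates 1 and 2, against 1256 and 1318 in shscramble. ZNF genes on other chromosomes summed to 4788 and 2971 CPM in shGOLM1, against 4192 and 4474 in shscramble. Replicate 2 was thus the lowest library for both ZNF sets and replicate 1 the highest.

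A fit with a single shGOLM1 library takes its spread from the shscramble pair and is a comparison of libraries, not of conditions. In shGOLM1 replicate 2 against shscramble, edgeR called 10 of 89 members higher (11.2%, against 33.3% of all genes) and 54 lower (60.7%, against 34.1%). In shGOLM1 replicate 1 it called 26 of 92 members higher (28.3%, against 20.4%) and 7 lower (7.61%, against 24.1%). Of ZNF genes on other chromosomes, 13.2% were higher and 53.7% lower in replicate 2, and 24.1% higher and 15.2% lower in replicate 1. These fits share the shscramble libraries. Compared directly, shGOLM1 replicate 2 was below replicate 1 in 72 of the 88 tested members (81.8%), in 72.9% of tested ZNF genes on other chromosomes, in 46.4% of other coding genes of chromosome 19 and in 51.1% of all tested genes. It was more than 4-fold below in 31 members (35.2%), against 25.5% of tested ZNF genes on other chromosomes and 10.9% of all tested genes. It was more than 4-fold above in 0 members, in 2 of 188 ZNF genes on other chromosomes and in 912 of 14166 tested genes. The low mitochondrial share of replicate 2 moved with these values, and its part in them was not tested.

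The members that differed most between the shGOLM1 libraries were nearly absent from replicate 2. ZNF426 (9523224 to 9538645) had 279 and 2 counts in shGOLM1 replicates 1 and 2, against 395 and 496 counts in shscramble. ZNF614 had 654 and 17 counts in shGOLM1, against 695 and 631 counts in shscramble. ZNF181 had 242 and 7 counts in shGOLM1, against 331 and 308 counts in shscramble. ZNF324B had 240 and 7 counts in shGOLM1, against 252 and 194 counts in shscramble. In each of them replicate 1 lay within or just below the range of the shscramble libraries in CPM, apart from ZNF426, at 8.05 CPM against 12.1 and 14.9 CPM, and ZNF181, at 6.98 CPM against 10.1 and 9.26 CPM. The sequences before the starts of these 4 genes, shown above, held 12 to 18 CG dinucleotides. The median CG number was 23 in the 29 matched members more than 4-fold below replicate 1, and 22 in the other 54 matched tested members.

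Loss in replicate 2 was not shared by all members of a block. Next to each other in the block from ZNF175 to ZNF331, ZNF766 had 17.1 and 20.2 CPM in shGOLM1 replicates 1 and 2, against 14.1 and 13.6 CPM in shscramble, and ZNF480 had 24.455 and 3.47 CPM in shGOLM1, against 24.458 and 26.4 CPM in shscramble. In the same region ZNF614 had 18.9 and 0.747 CPM in shGOLM1, against 21.3 and 18.97 CPM in shscramble. In replicate 2, ZNF766 was thus the highest of its 4 libraries while ZNF480 and ZNF614 were at their lowest. In the block from ZNF628 to ZNF446, the 35 tested members had median log2 differences of 0.36 in replicate 1 and -1.05 in replicate 2, with members ranging from -4.19 to 1.41 in the second. The 13 tested other protein-coding genes within that span had medians of -0.13 and -0.33. In the block from ZNF575 to ZNF296, the 9 tested members had medians of 0.15 and -0.26, and the 15 tested other coding genes had 0.17 and 1.41.

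**Figure D4:**
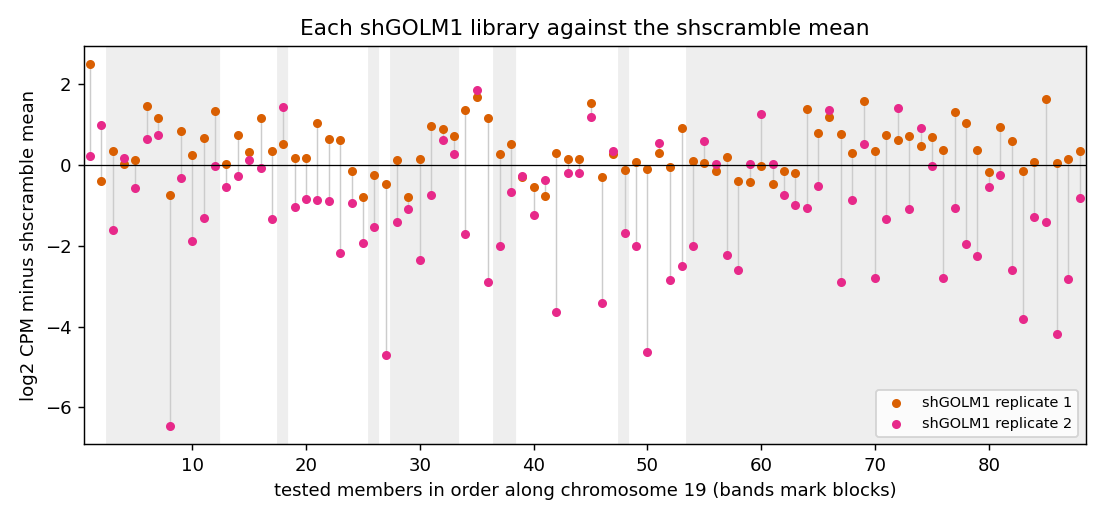
Log2 CPM minus the shscramble mean (y axis) for the 88 tested members in order along chromosome 19 (x axis), with a point for shGOLM1 replicate 1 and for replicate 2 and shaded bands for blocks. Replicate 2 lies below replicate 1 in 72 members, and the lowest point is ZNF426 at -6.47.

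ZNF581, ZNF333, ZNF579 and ZNF787 were, of members with at least 5 CPM, those furthest above replicate 1 in shGOLM1 replicate 2. Besides ZNF581 and ZNF333, ZNF579 had 19.4 and 28.1 CPM in shGOLM1 replicates 1 and 2, against 21.7 and 15.97 CPM in shscramble. ZNF787 had 42.0 and 59.7 CPM in shGOLM1, against 63.0 and 53.6 CPM in shscramble. The groups overlapped in ZNF579, ZNF787 and ZNF581. Among the highest members, ZNF317 had 64.8 and 40.1 CPM in shGOLM1, against 59.3 and 58.7 CPM in shscramble, and ZNF121 had 135 and 61.0 CPM in shGOLM1, against 70.4 and 81.2 CPM in shscramble. Both were highest in replicate 1 and lowest in replicate 2.

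The cofactor list held TRIM28, SETDB1 and the HP1 genes, and broader chromatin factors such as DNMT1, UHRF1, MBD2, EHMT1 and SUV39H1. It does not stand for KRAB repression alone, and all of its genes were transcribed. All 25 genes of the cofactor list were tested, and edgeR called 0 of them, with 2 at an unadjusted p under 0.05. Over all tested genes, 8.2% were higher and 3.58% lower at that p. In 14 of the 25 the shGOLM1 libraries were both lower than either shscramble library (26.5% of all tested genes), and in 3 both were higher (25.2%). The median log2 fold change of the list was -0.47, with medians of -0.19 in replicate 1 and -0.65 in replicate 2. TRIM28, the corepressor that binds KRAB domains, had 880 and 619 CPM in shGOLM1, against 990 and 956 CPM in shscramble, with a log2 fold change of -0.38 (SE 0.36) and an adjusted p of 0.67 in edgeR. SETDB1 had 23.8 and 47.3 CPM in shGOLM1, against 27.1 and 29.3 CPM in shscramble, so its groups overlapped.

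The HP1 genes differed among themselves. CBX5, which encodes HP1 alpha, had 149 and 75.6 CPM in shGOLM1 replicates 1 and 2, against 29.3 and 36.1 CPM in shscramble. Its log2 fold change was 1.78 (SE 0.45), and its adjusted p was 0.42 by quasi-likelihood in edgeR, 0.0394 in DESeq2 and 0.0477 by the likelihood-ratio test. It was 0.46 in limma-voom and 0.0668 in the authors' deposited test. With other scalings or filters or a replicate block, edgeR's quasi-likelihood test gave 0.11 to 0.49. CBX3, which encodes HP1 gamma, had 299 and 382 CPM in shGOLM1, against 634 and 611 CPM in shscramble, a log2 fold change of -0.87 (SE 0.32). CBX1, which encodes HP1 beta, had 74.7 and 157 CPM in shGOLM1, against 118 and 109 CPM in shscramble. CBX5 was thus higher and CBX3 lower in both shGOLM1 libraries, and CBX1 overlapped. SUV39H1, another H3 lysine 9 methyltransferase, had 63.0 and 40.5 CPM in shGOLM1, against 96.6 and 95.4 CPM in shscramble. PPHLN1, a subunit of the HUSH silencing complex, had 62.9 and 53.9 CPM in shGOLM1, against 91.6 and 90.4 CPM in shscramble. Both were lower in both shGOLM1 libraries, with adjusted p of 0.42 and 0.45 in edgeR. ZNF274, a member whose protein brings SETDB1 to the coding ends of ZNF genes in other human cell lines, had 10.4 and 8.08 CPM in shGOLM1, against 12.4 and 11.1 CPM in shscramble. Its groups did not overlap, and the fitted log2 fold change was -0.35 (SE 0.38; adjusted p = 0.71 in edgeR).

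**Figure D5:**
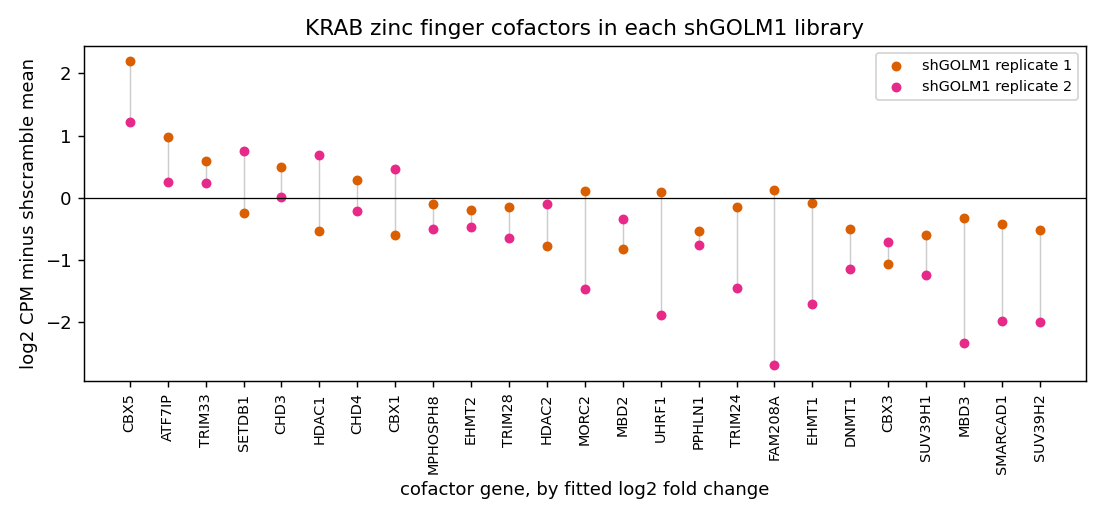
Log2 CPM minus the shscramble mean (y axis) for 25 cofactor genes (x axis, ordered by fitted log2 fold change), with a point for shGOLM1 replicate 1 and for replicate 2. CBX5 is the highest, at 2.20 and 1.22, and CBX3 is at -1.06 and -0.70.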

How the data were processed

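Per the file headers, the deposited table gives raw counts for each gene in each library. The authors' FPKM are scaled by gene length and were used only to order levels between genes. The authors' mean signal per group was not used. The deposited log2 fold change was not used for any test, and the deposited p-value columns, whose tool the table does not name, are quoted only for the members and for CBX5. The sources used here give no strand setting for the counting. The submitters' processing notes list mouse builds, but all 249 members have the identifiers and coordinates of GENCODE 29 on GRCh38, which is human.

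Samples were grouped by title. The test was the quasi-likelihood test of edgeR (R 4.3.3, edgeR 4.0.16, limma 3.58.1) with TMM, filterByExpr and no covariate, two-sided, with Benjamini-Hochberg adjustment over 14166 genes and a threshold of 0.05. Log2 CPM used a prior count of 2. Each SE of a log2 fold change was worked back from the test, as its absolute value divided by the square root of the F statistic. Alternatives were other scalings and filters, DESeq2 1.42.0, limma-voom, leaving out single libraries, a replicate block and edgeR's likelihood-ratio test. The procedure was run on simulated counts with the same spread in both groups. These libraries differ in that, so the simulation does not show how the procedure performs on them. The members and lists were chosen with earlier results of these data known, and the windows, motifs, neighbours and direct comparison of the shGOLM1 libraries were added after the data were seen. Named genes were, among members, the 8 with the smallest p in each direction with a mean of at least 1 CPM, the 6 with the highest shscramble FPKM, any without counts in 1 group that reached 1 CPM in both libraries of the other (there was none), the 4 most unequal between shGOLM1 libraries in each sign (at least 5 CPM) and ZNF274, and 6 cofactors. Other genes named were chosen after their values were seen. Figures were drawn with matplotlib 3.10.9.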

Additional observations from a re-analysis of the deposited data

How the results depend on the processing

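Precision is limited by 2 libraries a group and by the spread within shGOLM1. The number of members called in edgeR or another tool was 0 under every alternative that kept all 4 libraries, and ran from 0 to 64 when a library was left out. It was 64 without shGOLM1 replicate 1, 33 without shGOLM1 replicate 2 and 0 without either shscramble library. Of all genes, edgeR called 0, or 192 where genes with low counts were kept, 203 with a replicate block, 533 in DESeq2 and 496 in the likelihood-ratio test, and 20 to 10290 when a library was left out. The shared replicate numbers are not stated to mark a batch, and the correlation of their deviations was -0.0977, so the block is not read as pairing; it called 0 members. The members' median log2 fold change of -0.12 ran from -1.01 to 0.31 without 1 library. Members whose groups did not overlap numbered 30, or 17 where at least 5 CPM in 2 libraries were asked, which leaves 52 members. They numbered 42 to 81 without 1 library, where fewer libraries must separate. For these other settings the share of all tested genes was not counted. The 17 and the 42 to 81 therefore have no background, and no conclusion is drawn from them. Of the 25 cofactors, 1 was called in DESeq2 and 1 in the likelihood-ratio test, in both cases CBX5, as higher. DESeq2 called 3.42% of all genes higher and the likelihood-ratio test 3.06%. The number of cofactors called was not stable, and it moved when either shGOLM1 library was left out. With blocks cut at gaps of 500000 bases there were 20 blocks. Among the named genes, signs turned only when a shGOLM1 library was left out. ZNF121 ran from -0.36 to 0.82, ZNF581 from -0.0419 to 1.2290, ZNF317 from -0.61 to 0.12, ZNF324B from -4.4910 to 0.0130 and SETDB1 from -0.26 to 0.70. The cause was not tested.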
